A study of Bos taurus with 50 samples.

Results

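ENPP3, ENPP4 and ENPP5 are members of the ectonucleotide pyrophosphatase/phosphodiesterase (ENPP) family. They were picked by Ensembl identifier, ENSBTAG00000020196 for ENPP3, ENSBTAG00000003499 for ENPP4 and ENSBTAG00000015829 for ENPP5, and make up 3 of the 18830 genes in a table of read counts from cow endometrium. The 50 libraries came from endometrial biopsies of Holstein x Jersey cows in their first lactation, taken at week 5 or week 9 after calving. CycW5 cows had a corpus luteum and circulating progesterone (P4) at week 5, and gave 10 libraries at each week. NoCycW5 cows had neither, and their P4 had stayed below the assay's limit since calving (12 libraries at week 5 and 11 at week 9). CycNoP4 cows, which the study left out of its own analysis, had high P4 at week 4 and low P4 at week 5, so that they had begun to cycle but were not exposed to P4 when biopsied (4 and 3 libraries). Before week 9, all cows received the same synchronization treatment (GnRH, a P4 insert and PGF2α), timed so that the week 9 biopsy fell in the luteal phase. The genes were chosen because earlier results of these data had shown them higher with P4, so their differences between CycW5 and NoCycW5 cows and between weeks in these groups are given below as description without a test.

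ENPP enzymes face the outside of the cell or are secreted, and most cleave extracellular nucleotides such as ATP or the diadenosine polyphosphates. Together with ectonucleoside diphosphohydrolases, 5′-nucleotidase and alkaline phosphatase they set how much ATP, pyrophosphate and adenosine reaches the purine receptors of neighbouring cells. ENPP3 (CD203c) degrades ATP and related nucleotides and is known from basophils, mast cells and many glandular epithelia, the uterus among them. ENPP4 cleaves diadenosine triphosphate, and ENPP5 is a related membrane protein whose substrates are less well described. P4 from the corpus luteum changes the secretory activity of endometrial glands, and the luteal endometrium is low in oxytocin receptor (OXTR) until luteolysis.

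Each library held 21592867 to 32813237 reads counted on genes. Levels are given as CPM (counts per 1000000 counted reads), scaled by edgeR's TMM factors, and all 3 genes passed the filter on low counts. Symbols could be paired with identifiers only through tables of genes that the study had called, so lists of genes are incomplete. The epithelial marker EPCAM averaged 210.8 to 449.8 CPM and the stromal marker PDGFRA 443.4 to 752.6 CPM over the 6 groups, so both compartments of the endometrium were present. The markers fixed for leukocytes and for mast cells and basophils were not among the paired genes and were not analysed here.

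ENPP3 was the least counted of the 3 genes. In NoCycW5 cows at week 5 it ranged from 0.83 to 17.1 CPM with a median of 2.62 CPM. In the same status group at week 9 the lowest, median and highest values were 6.16, 12.2 and 42.8 CPM. CycW5 cows ranged from 1.32 to 39.9 CPM (median 17.8 CPM) at week 5 and from 4.19 to 55.5 CPM (median 9.33 CPM) at week 9. The groups overlapped in every comparison, and the spread within groups was wide. The 4 CycNoP4 libraries at week 5 had 12.9, 9.09, 9.21 and 11.1 CPM of ENPP3, each above at least 10 of the 12 NoCycW5 libraries of that week, and the 3 at week 9 had 11.4, 17.4 and 41 CPM.

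ENPP4 separated the libraries most clearly. In NoCycW5 cows at week 5 it ranged from 28.8 to 69.0 CPM (median 40.8 CPM), and at week 9 from 84.9 to 606 CPM (median 285 CPM). In CycW5 cows it ranged from 51.1 to 657 CPM (median 303 CPM) at week 5 and from 83.3 to 480 CPM (median 294 CPM) at week 9. The NoCycW5 groups of the 2 weeks did not overlap. The CycNoP4 cows at week 5 had ENPP4 levels of 32.7, 51.3, 72.6 and 79.2 CPM, and at week 9 of 220, 343 and 478 CPM. All 16 libraries taken without P4, from NoCycW5 and CycNoP4 cows at week 5, lay at or below 79.2 CPM, and 33 of the other 34 libraries lay above that value. The exception was library 57, a CycW5 cow at week 5 with 51.1 CPM. The cut of 79.2 CPM is the highest of the 16 values, and ENPP4 was chosen as higher with P4. The split is therefore description only, and the share of all genes with such a split was not counted.

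ENPP5 followed the same order at lower counts. It ranged from 8.77 to 34.8 CPM (median 15.7 CPM) in NoCycW5 cows at week 5 and from 35.5 to 234 CPM (median 93.5 CPM) in NoCycW5 cows at week 9. CycW5 cows had 17.2 to 218 CPM (median 101 CPM) of ENPP5 at week 5 and 34.6 to 159 CPM (median 102 CPM) at week 9. Here too the NoCycW5 groups of the 2 weeks did not overlap. In CycNoP4 cows ENPP5 stood at 18.2, 40.9, 63.3 and 32.9 CPM at week 5 and at 73.0, 161 and 146 CPM at week 9. Of the week 5 values of these cows, 2 lay within the NoCycW5 range of that week and 2 above it, and the median lay between those of the other groups.

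**Figure D1:**
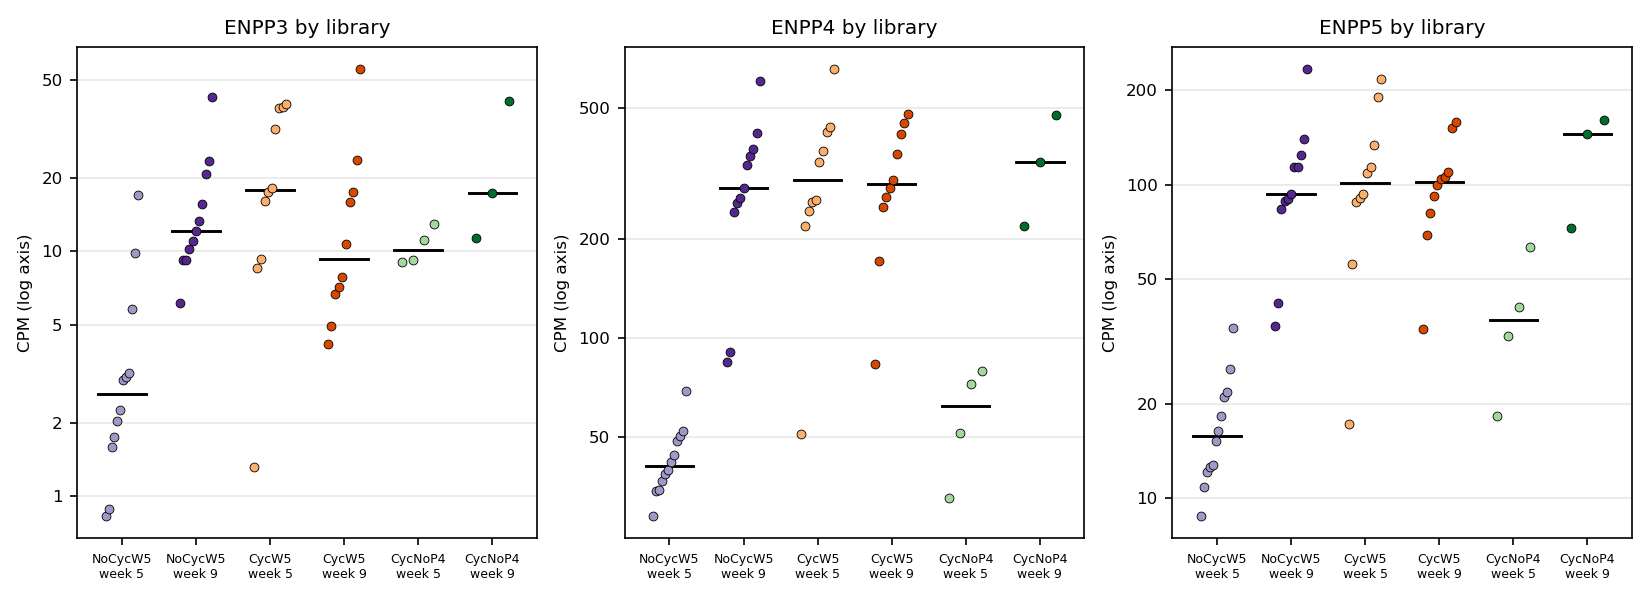
CPM (log axis) of ENPP3, ENPP4 and ENPP5 in each of the 50 libraries, by cyclicity group and week; points are libraries and bars are group medians. For ENPP4 and ENPP5 the NoCycW5 libraries of week 5 lie low (medians 40.8 and 15.7 CPM) and those of week 9 lie higher without overlap, whereas the ENPP3 groups overlap.

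By group mean, ENPP4 was ordered CycNoP4 at week 9 (347 ± 129 CPM, SD, n = 3), CycW5 at week 5 (327 ± 162, n = 10), CycW5 at week 9 (307 ± 125, n = 10), NoCycW5 at week 9 (302 ± 147, n = 11), CycNoP4 at week 5 (59.0 ± 21.2, n = 4) and NoCycW5 at week 5 (43.3 ± 10.7, n = 12). The first 4 groups differed from their neighbours by less than their SD, the last 2 groups by less than the larger of their SDs, and the step lay between NoCycW5 at week 9 and CycNoP4 at week 5. ENPP5 had the same order of means, 126 ± 46.8, 111 ± 59.2, 101 ± 36.4, 105.4 ± 53.1, 38.8 ± 18.8 and 17.5 ± 7.43 CPM, apart from an exchange of CycW5 and NoCycW5 at week 9, and its last 2 means differed by more than either SD. For ENPP3 the means were 23.3 ± 15.6 CPM in CycNoP4 cows at week 9, 22 ± 14.2 in CycW5 cows at week 5, 15.8 ± 10.3 in NoCycW5 and 15.4 ± 15.4 in CycW5 cows at week 9, 10.6 ± 1.81 in CycNoP4 cows at week 5 and 4.28 ± 4.75 in NoCycW5 cows at week 5. No pair of neighbours in the ENPP3 order was farther apart than the larger of its SDs, except the last.

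CycW5 and NoCycW5 cows were compared at week 5 to ask how the endometrium differs between cows with and without P4. In the edgeR fit ENPP4 had a log2 fold change of 2.92 (SE 0.30), ENPP5 of 2.66 (SE 0.30) and ENPP3 of 2.36 (SE 0.50). Without library 57 the log2 fold changes were 3.04, 2.79 and 2.50. In NoCycW5 cows the change from week 5 to week 9 was close in size, with a log2 fold change of 2.81 (SE 0.29) for ENPP4, 2.59 (SE 0.30) for ENPP5 and 1.89 (SE 0.49) for ENPP3. These comparisons share the NoCycW5 libraries of week 5, so their likeness is not independent. In CycW5 cows the week 9 minus week 5 values were -0.08 (SE 0.30) for ENPP4, -0.13 (SE 0.30) for ENPP5 and -0.50 (SE 0.51) for ENPP3. At week 9, when all cows had been synchronized, CycW5 and NoCycW5 cows differed by 0.03 (SE 0.29), -0.05 (SE 0.30) and -0.04 (SE 0.49) on the log2 scale for ENPP4, ENPP5 and ENPP3, well inside the spread between libraries. The change in NoCycW5 minus that in CycW5 cows came to 2.89 (SE 0.41) for ENPP4, 2.72 (SE 0.42) for ENPP5 and 2.40 (SE 0.70) for ENPP3. Over all 15483 genes tested in this fit, 15.2% were called higher in CycW5 than in NoCycW5 cows at week 5 with a p of at most 0.05 after Benjamini-Hochberg (BH) adjustment, and 19.4% were called higher at week 9 than at week 5 in NoCycW5 cows. Groups that did not overlap, as for ENPP4 and ENPP5 between the weeks in NoCycW5 cows, were found in this direction for 0.355% of genes, a share given as background only because the genes were chosen on this pattern.

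Of the other ENPP genes, ENPP1 and ENPP6 were measured, while ENPP2 and ENPP7 were not analysed here. ENPP1 makes pyrophosphate from ATP, and ENPP6 acts on choline phospholipids rather than nucleotides. ENPP1 had a mean of 58.2 ± 23.3 CPM (SD, n = 12) in NoCycW5 and 173 ± 71 CPM (n = 10) in CycW5 cows at week 5, and rose by a log2 fold change of 1.57 (SE 0.28, edgeR BH adjusted p = 6.63e-05). ENPP6 averaged 28.1 ± 10.9 and 53.8 ± 26.7 CPM in these groups (log2 fold change 0.93, SE 0.29, BH adjusted p = 0.0159), a call that was lost without library 45 (BH adjusted p = 0.0594). Between the weeks in NoCycW5 cows both rose, ENPP1 by 1.41 (SE 0.28, BH adjusted p = 0.000137) and ENPP6 by 1.08 (SE 0.29, BH adjusted p = 0.00338). The change of ENPP1 differed between NoCycW5 and CycW5 cows by 1.83 (SE 0.40, BH adjusted p = 0.00447), and that of ENPP6 by 1.08 (SE 0.42), which did not pass (BH adjusted p = 0.0947). For these genes, which the rule did not name, both week 5 values lay below those of the 3 members, although the difference between genes was not tested. The members were chosen as higher with P4, so this order is not independent of the choice. ENPP1 and ENPP6 carried symbols because the study had called them in some comparison.

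**Figure D2:**
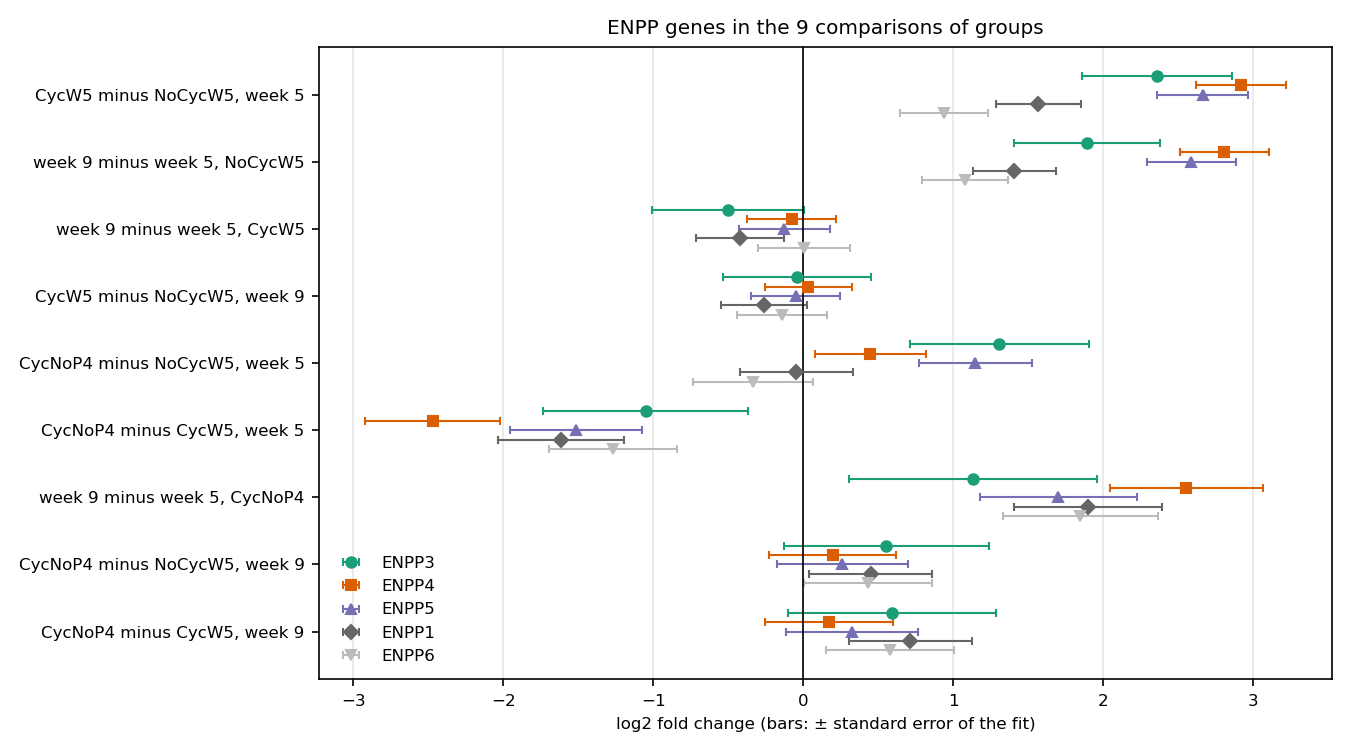
Log2 fold changes with standard errors of ENPP3, ENPP4, ENPP5, ENPP1 and ENPP6 in the 9 comparisons between groups (the first group named minus the second). Among the genes plotted, ENPP4 has the largest values at week 5, for CycW5 minus NoCycW5 (2.92) and in size for CycNoP4 minus CycW5 (-2.47), and between groups at week 9 all values lie between -0.26 and 0.71.

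CycNoP4 cows were compared with the other groups in a fit of all 50 libraries, because they had cycled but were without P4 at week 5. ENPP4 and ENPP5 were lower than in CycW5 cows at week 5 and higher at week 9 than at week 5, while ENPP3 did not pass the test in any of these comparisons. The week 5 comparisons share the CycW5 or NoCycW5 libraries in which the genes had been chosen as high or low. Their p-values are therefore not independent of that choice. The change between weeks in CycNoP4 cows uses none of those libraries as an arm, but its spread is estimated from all 50 libraries. Whether CycNoP4 libraries also served in the choice of the genes is not known, so its p-values may not be independent of the choice either. Against CycW5 cows at week 5, ENPP4 was lower by a log2 fold change of -2.47 (SE 0.45, edgeR BH adjusted p = 0.000612) and ENPP5 by -1.52 (SE 0.44, BH adjusted p = 0.0146). ENPP3 had a value of -1.05 (SE 0.68, BH adjusted p = 0.283). Called in either direction were 17.9% of 16120 genes, and called lower 8.29%. All 4 CycNoP4 libraries were below 9 of the 10 CycW5 libraries in ENPP4, and library 57 fell among them. The call of ENPP5 was lost without library 56 (BH adjusted p = 0.0555), whereas ENPP4 kept its call whichever library was left out (BH adjusted p at most 0.00572).

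Against NoCycW5 cows at week 5, the other group without P4, ENPP5 was higher in CycNoP4 cows by 1.15 (SE 0.37, BH adjusted p = 0.0308). ENPP4 had a log2 fold change of 0.45 (SE 0.37, BH adjusted p = 0.407) and ENPP3 of 1.31 (SE 0.60, BH adjusted p = 0.119), neither past the threshold. The share of genes called higher was 9.92% and in either direction 16.4%. This comparison rested on few libraries: ENPP5 lost its call without library 51 (log2 fold change 0.81, BH adjusted p = 0.256), 56 (BH adjusted p = 0.0699) or 58 (BH adjusted p = 0.0716), and ENPP3 passed without library 55, the highest NoCycW5 library (1.76, BH adjusted p = 0.0279). ENPP1 (-0.05, SE 0.38) and ENPP6 (-0.33, SE 0.40) did not pass, with BH adjusted p = 0.942 and 0.575.

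From week 5 to week 9 in CycNoP4 cows, ENPP4 rose by 2.55 (SE 0.51, BH adjusted p = 0.00218) and ENPP5 by 1.70 (SE 0.52, BH adjusted p = 0.0204), and neither gene overlapped between the weeks. For ENPP3 the value was 1.13 (SE 0.83, BH adjusted p = 0.33), and the groups overlapped. Called in either direction were 19.6% of genes, and 14% did not overlap and were higher at week 9, in groups of 3 and 4 libraries. ENPP5 lost its call without library 79 (BH adjusted p = 0.0874), 94 (0.074) or 56 (0.0565), and ENPP4 kept it in every case (BH adjusted p at most 0.0204). ENPP1 rose by 1.90 (SE 0.50, BH adjusted p = 0.00902, and 0.0903 without library 94) and ENPP6 by 1.85 (SE 0.52, BH adjusted p = 0.0125, and 0.0554 without library 79). At week 9 no member passed the test between CycNoP4 cows and either other group (log2 fold changes 0.17 to 0.59, BH adjusted p at least 0.907). At that week edgeR called 0 genes of 16120 in either comparison, with 782 and 1257 genes at an unadjusted p under 0.05, and DESeq2 called 13 and 19.

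In bulk tissue, fewer cells of a type and less RNA per cell cannot be told apart. Of the 8 epithelial markers 4 were paired (EPCAM, KRT8, CLDN4 and MUC1), and none was at 0. Their summed level had a median of 411 CPM (range 307 to 532) in NoCycW5 and 591 CPM (355 to 1229) in CycW5 cows at week 5, and of 959 CPM (404 to 1276) and 884 CPM (315 to 1052) at week 9. In CycNoP4 cows it was 665 CPM (503 to 961) at week 5 and 649 CPM (544 to 1055) at week 9. EPCAM, KRT8 and CLDN4 rose in CycW5 against NoCycW5 cows at week 5 by 0.71, 0.78 and 1.94 (edgeR BH adjusted p = 0.0234, 4.71e-06 and 0.00266), and MUC1 had a value of -0.54 (BH adjusted p = 0.0703). Between the weeks in NoCycW5 cows EPCAM, KRT8, CLDN4 and MUC1 had log2 fold changes of 1.09, 0.64, 2.83 and -0.20. The sum thus combines markers that moved by different amounts. Each of the 4 was paired because the study had called it in some comparison. The sum may therefore itself respond to status, week or microbiota, and is not a neutral measure of epithelial content. Expressed per summed epithelial markers, ENPP3, ENPP4 and ENPP5 were higher in CycW5 cows at week 5 by log2 differences of 1.89, 2.14 and 1.93, and at week 9 in NoCycW5 cows by 1.28, 1.65 and 1.53. In the comparison of CycNoP4 with NoCycW5 cows at week 5 the same scale gave 1.15 for ENPP3, -0.34 for ENPP4 and 0.38 for ENPP5, so that the direction of ENPP4 turned and the difference of ENPP5 was less than on the CPM scale. Between CycNoP4 and CycW5 cows ENPP4 and ENPP5 kept their size, with -2.47 and -1.55, and ENPP3 had -0.75 against -1.05 in the edgeR fit. The values per epithelial markers are differences of mean log2 ratios, whereas the edgeR values come from a model of counts. The 2 scales are thus not fully alike. Endothelial markers (CDH5 and VWF, 2 of 5 paired) had a summed median of 387 CPM (217 to 590) in NoCycW5 and 254 CPM (149 to 312) in CycW5 cows at week 5. The part of cell composition in these results was not tested beyond these ratios.

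ENPP4 and ENPP5 moved together from library to library. Over the 50 libraries the correlation of their log2 CPM was r = 0.946 (rho = 0.910), and with the 6 group means removed r = 0.844, given as description because the libraries share groups. Within groups, 12 relations among the 3 genes were computed, each with a permutation test (100000 permutations, two-sided) and BH adjustment over the 12. ENPP4 and ENPP5 were correlated in all 4 groups of 10 or more libraries, with r = 0.678 in NoCycW5 cows at week 5 (p = 0.0149, adjusted 0.0358), 0.838 at week 9 (p = 0.00361, adjusted 0.0108), 0.931 in CycW5 cows at week 5 (p = 0.00099, adjusted 0.00594) and 0.875 at week 9 (p = 0.00286, adjusted 0.0108). The rank correlations were rho = 0.769, 0.745, 0.745 and 0.830 (permutation p = 0.00494, 0.0116, 0.0169 and 0.00476, adjusted 0.0198, 0.0349, 0.0406 and 0.0198). Without the 2 libraries farthest from the ENPP4 median, r was 0.752, 0.366, 0.583 and 0.579. The relation at week 9 in NoCycW5 cows thus rested largely on libraries 91 and 76, which were lowest in both genes.

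ENPP3 followed the other members only in part. In CycW5 cows at week 5 it was correlated with ENPP5 (r = 0.932, permutation p = 0.00069, adjusted 0.00594, and rho = 0.830, permutation p = 0.00453, adjusted 0.0198), also without libraries 57 and 12 (r = 0.731). Its relation with ENPP4 in that group (r = 0.820, permutation p = 0.0191, adjusted 0.0382, but rho = 0.479, permutation p = 0.166, adjusted 0.333) fell to r = 0.0881 without these libraries and rested on them. In the other 3 groups r ranged from -0.0974 to 0.561 for ENPP3 with either gene, with adjusted permutation p of 0.123 or more. Without the 2 libraries farthest from the ENPP3 median, r in CycW5 cows at week 9 went from 0.0912 to 0.679 with ENPP4 and from 0.133 to 0.541 with ENPP5 (libraries 72 and 87), and in the NoCycW5 groups it lay between -0.474 and 0.0143. In CycW5 cows at week 9, library 87 was lowest in ENPP4 (83.3 CPM) and ENPP5 (34.6 CPM) but second highest in ENPP3 (23.6 CPM). Whether the correlation differed between groups was not tested.

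**Figure D3:**
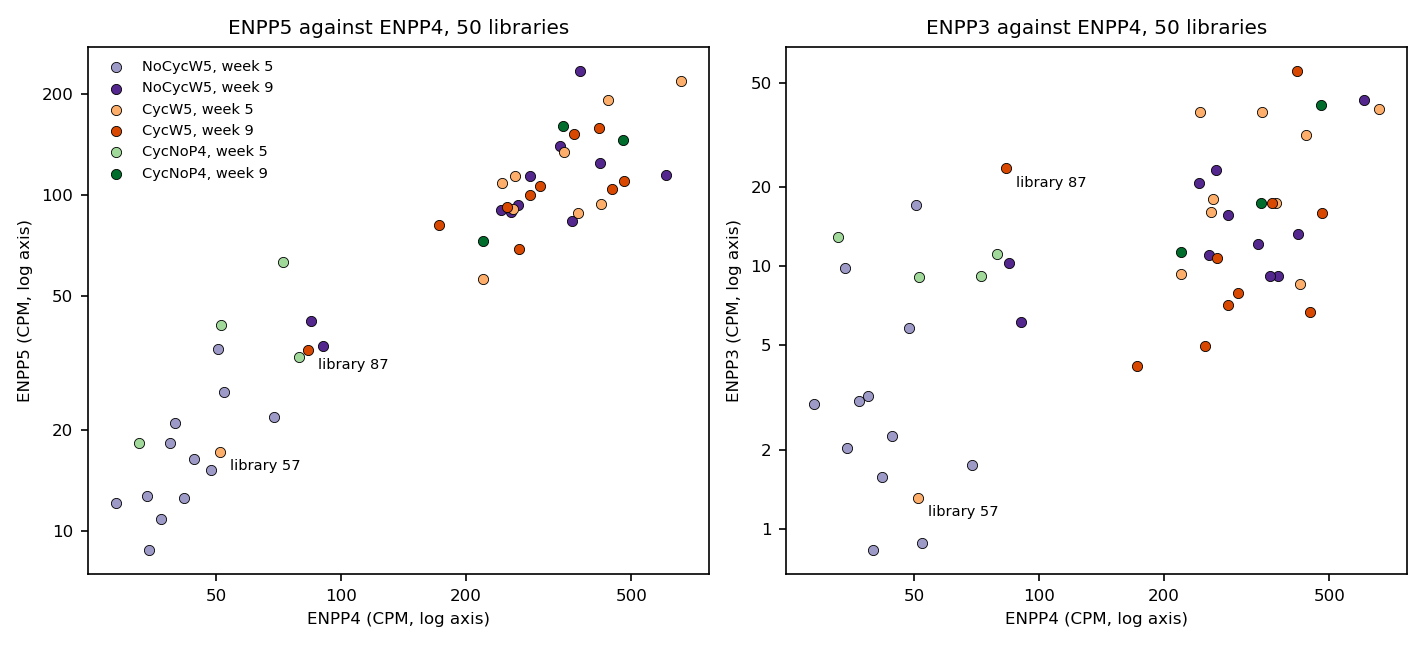
ENPP5 (left) and ENPP3 (right) against ENPP4 in CPM on log axes, one point per library and coloured by group. ENPP4 and ENPP5 lie along a single band (r = 0.946 on the log2 scale), and ENPP3 varies more widely at any level of ENPP4 (r = 0.681).

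The ratio of reads between members does not depend on the scaling of a library. Reads of ENPP4 per read of ENPP5 had geometric means of 2.59 in NoCycW5 and 2.99 in CycW5 cows at week 5, and of 2.81 and 2.96 at week 9. In CycNoP4 cows the ratio was 1.58 at week 5 (range 1.15 to 2.41) and 2.76 at week 9. These ratios are of reads, not of transcripts per length. After the values were seen, 15 differences of ratios between CycNoP4 and other groups were tested by exact permutation, two-sided, with BH adjustment over the 15. The ratio of ENPP4 to ENPP5 in CycNoP4 cows at week 5 was lower than in CycW5 cows by -0.92 on the log2 scale (exact permutation p = 0.004, adjusted 0.0375), and the difference from NoCycW5 cows of -0.71 did not pass (exact permutation p = 0.0126, adjusted 0.0632). The ratio of ENPP4 to ENPP3 was also lower than in CycW5 cows, by -1.73 (exact permutation p = 0.005, adjusted 0.0375). These ratios share the CycW5 libraries too, and leaving out single libraries moved them both ways. The difference for ENPP4 to ENPP5 ranged from -1.12 without library 56 to -0.77 without library 51. For ENPP4 to ENPP3 the difference ranged from -1.92 without library 51 to -1.37 without library 64. Without a CycNoP4 library the exact permutation p could not fall below 0.0035, against 0.001 with all libraries. The unadjusted exact permutation p for ENPP4 to ENPP3 was 0.035 (difference -1.37) without library 64 and 0.021 without library 58, and for ENPP4 to ENPP5 it was 0.0175 without library 51 or 58. The other 12 differences had adjusted p of 0.107 or more, and the comparison of the weeks in CycNoP4 cows could not give an exact p below 0.0286.

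Individual libraries low in ENPP4 were set beside OXTR, which P4 represses, and beside the oestrogen receptor ESR1. Library 57, lowest of the CycW5 cows at week 5 in all 3 members, had the highest OXTR of its group, 151 CPM against a median of 43.1 CPM. At week 9, libraries 91 and 76 of the NoCycW5 group (ENPP4 at 84.9 and 90.5 CPM) had the highest OXTR values of that group (162 and 93.4 CPM), and library 87 had the highest of the CycW5 group (178 CPM). Libraries 80 and 72 also had high OXTR (81.5 and 111 CPM) but ENPP4 at 606 and 419 CPM, so high OXTR and low ENPP4 did not always go together. Over 24 relations of the receptors with the members within groups (permutation tests, BH over the 24), OXTR and ENPP4 in CycW5 cows at week 5 gave r = -0.758 (permutation p = 0.0241, adjusted 0.193) and rho = -0.818 (permutation p = 0.00576, adjusted 0.0691), and r = -0.685 without libraries 67 and 57. Neither passed the adjustment.

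A single relation with a receptor passed, that of ESR1 with ENPP3 in CycW5 cows at week 9. There r was 0.900 (permutation p = 0.00063, adjusted 0.0151) and rho 0.939 (permutation p = 0.0003, adjusted 0.0072), and r was 0.867 without libraries 89 and 72. ENPP3 ranged there from 4.19 CPM in library 89, which had the lowest ESR1 (28.8 CPM), to 55.5 CPM in library 72, which had the highest (129 CPM). In NoCycW5 cows at week 9 the same pair gave r = 0.328 (permutation p = 0.324, adjusted 0.648) and rho = 0.118 (permutation p = 0.736, adjusted 0.931), and at week 5 r was 0.0368 in NoCycW5 (permutation p = 0.91) and -0.0800 in CycW5 cows (permutation p = 0.845). The difference between groups was not tested.

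**Figure D4:**
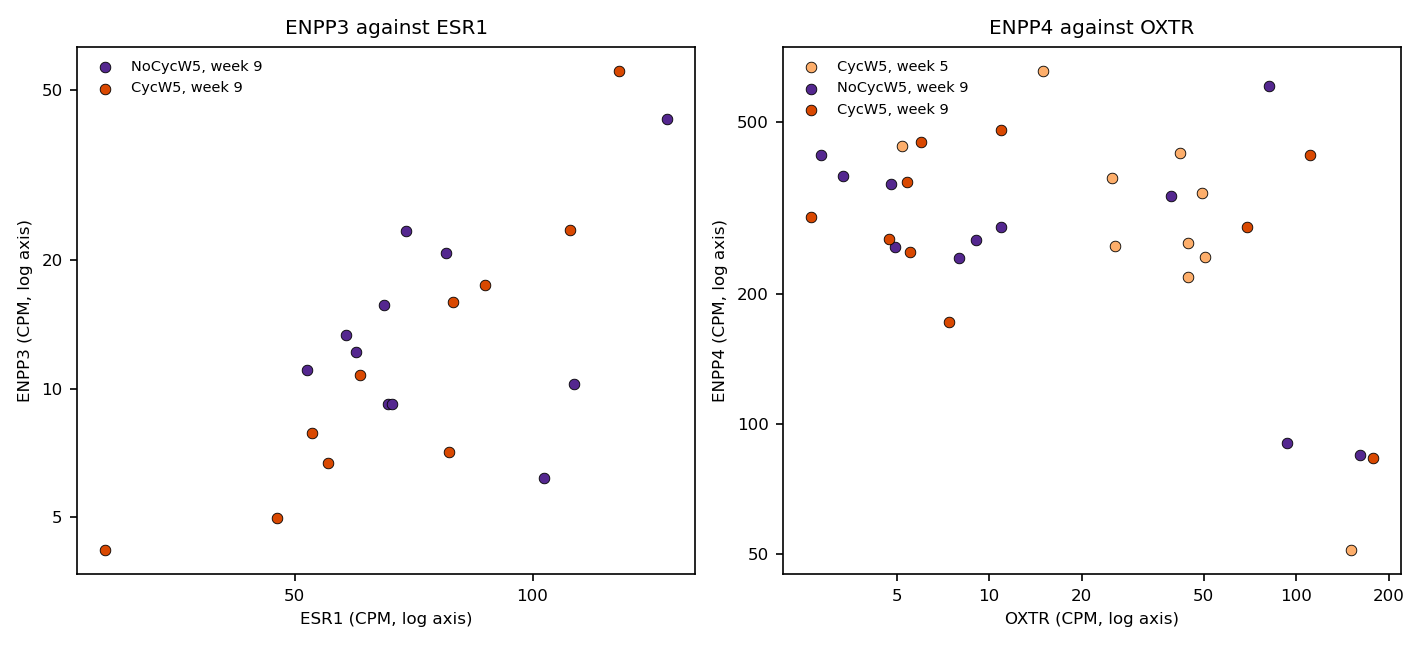
ENPP3 against ESR1 at week 9 (left) and ENPP4 against OXTR in 3 groups (right), in CPM on log axes with one point per library. ENPP3 and ESR1 increase together in CycW5 cows (r = 0.900), and the 4 libraries with ENPP4 under 100 CPM (libraries 57, 76, 87 and 91) all have at least 93.4 CPM of OXTR.

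Log2 CPM of each member was correlated over the 50 libraries with that of 16119 other genes. The closest genes with a symbol were listed, as description. Symbols (2321) were paired only with genes that the study had called, so genes more alike can be missing from the lists. For ENPP5 the first was ENPP4 (r = 0.946), followed by LRP2 (megalin, an endocytic receptor, 0.945), PLLP (0.931), NRCAM (0.923) and FERMT1 (0.922). For ENPP4 they were GM2A (a lysosomal lipid-binding protein, 0.953), DYDC1 (0.951), SLC23A1 (a vitamin C transporter, 0.947), ENPP5 (0.946) and NXT2 (0.941). With group means removed, ENPP4 was again the gene most like ENPP5, and LRP2 and ADIPOR2 were among the 5 most like both. The reverse did not hold. Counting genes without a symbol, ENPP5 was at place 6 for ENPP4 over the 50 libraries and at place 13 with group means removed. ENPP3 had weaker partners, MCCC2 (0.813), SLC13A5 (a citrate transporter, 0.811), MPP7 (0.810), ACSL3 (0.801) and SUCO (0.797). With group means removed its 5 closest were MLPH (0.755), PLA2G3 (0.684), MPP7 (0.680), BDH1 (0.680) and GNMT (0.677). ENPP4 and ENPP5 were at place 198 and 76 of 16119 for ENPP3 over the 50 libraries.

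In the RefSeq annotation of the ARS-UCD2.0 assembly, used here only for gene order, ENPP4 and ENPP5 are next to each other, as are ENPP3 and ENPP1. Of the genes around ENPP4 and ENPP5, CLIC5, an intracellular chloride channel protein that lies beside ENPP4, rose in CycW5 against NoCycW5 cows at week 5 by 1.44 (SE 0.33, edgeR BH adjusted p = 0.00121). RCAN2, beside ENPP5, had a value of 0.36 (SE 0.23, BH adjusted p = 0.25). CYP39A1, an oxysterol hydroxylase, rose by 2.90 (SE 0.60, BH adjusted p = 0.000358) and SLC25A27 by 0.99 (SE 0.36, BH adjusted p = 0.0392). From week 5 to week 9 in NoCycW5 cows all 4 rose, by 2.60, 0.70, 4.54 and 2.20 (BH adjusted p = 6.29e-07, 0.0162, 1.51e-06 and 1.49e-05), where 19.4% of all genes were called higher. Against CycW5 cows at week 5, CYP39A1 was lower in CycNoP4 cows (-3.21, SE 0.92, BH adjusted p = 0.0135), and CLIC5 (-1.28, SE 0.49, BH adjusted p = 0.0589) did not pass. On the other side of ENPP3, MED23 had a value of 0.11 (SE 0.07, BH adjusted p = 0.26) at week 5 and EPB41L2, 4 genes along, fell by 0.57 on the log2 scale (SE 0.13, BH adjusted p = 0.000992). Neighbours were seen only where the study had called the gene.

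The wider set of extracellular nucleotide and adenosine genes held 50 listed genes, of which 11 were paired and tested. In CycW5 against NoCycW5 cows at week 5, 8 of the 11 were called higher and the other 3 were not called, with a median log2 fold change of 0.97 against -0.02 for all genes and a background of 15.2% called higher. The pairing through the study's own calls favours such genes, so the count is not independent evidence. P2RX3, an ATP-gated cation channel, rose by 3.71 (SE 0.44, edgeR BH adjusted p = 1.6e-07), SLC29A2, an equilibrative nucleoside transporter, by 2.33 (SE 0.30, BH adjusted p = 4.84e-07), and ADORA2B, an adenosine receptor, by 1.56 (SE 0.25, BH adjusted p = 9.24e-06). The purine receptor P2RY1 (-0.49, SE 0.31), the ATP release channel PANX1 (0.14, SE 0.16) and ART3 (-0.24, SE 0.24) were not called. Between the weeks in NoCycW5 cows 7 of 11 were called higher, against a background of 19.4%, ALPL, alkaline phosphatase, by 1.51 (SE 0.31, BH adjusted p = 0.000214), and ADORA1 had a value of -0.94 (SE 0.51, BH adjusted p = 0.143). The changes of SLC29A2 (2.08), P2RX3 (3.63) and ADORA2B (1.24) differed between NoCycW5 and CycW5 cows (BH adjusted p = 0.00235, 0.000602 and 0.0235), 3 of the 11 against a background of 4.99%, and 5 of the 11 without library 76 or by DESeq2.

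The same list was compared in CycNoP4 cows. Against CycW5 cows, SLC29A2 (-1.80, SE 0.43), P2RX3 (-2.42, SE 0.63) and PANX2 (-1.17, SE 0.37) were lower (edgeR BH adjusted p = 0.00378, 0.00698 and 0.0242), 3 of the 11 against a background of 8.29%. ADORA2B had a value of -0.19 in the same comparison (SE 0.41, BH adjusted p = 0.79). Its CycNoP4 mean rested on library 51 (53.8 CPM), and the median was 11.2 CPM against 23.1 CPM in CycW5 cows. ADORA2B was the single gene called higher than in NoCycW5 cows (1.37, SE 0.38, BH adjusted p = 0.0126), 1 of 11 against a background of 9.92%. That call was lost without library 51, and 3 genes of the list were called without library 44 or 64. From week 5 to week 9 the same 3 genes, SLC29A2, P2RX3 and PANX2, rose in CycNoP4 cows (1.58, 2.17 and 1.96, BH adjusted p = 0.0234, 0.0283 and 0.00462), against a background of 9.74%. At most 2 genes of the list were called whichever library was left out, and 1 without library 51, 58, 79 or 88. In CycW5 cows edgeR called 0 of the 11 between the weeks (0.0452% of all genes), with 2 at an unadjusted p under 0.05, and DESeq2 called 1 higher and 1 lower.

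**Figure D5:**
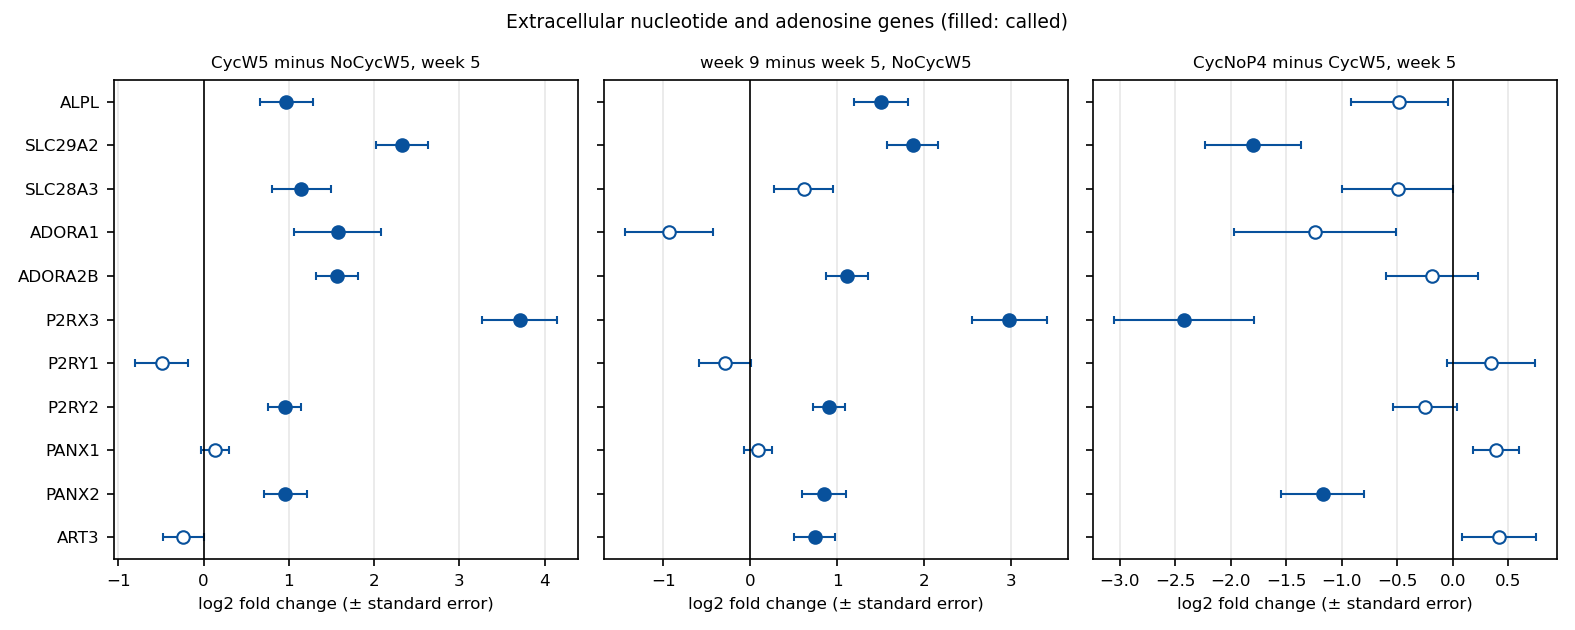
Log2 fold changes with standard errors of the 11 paired genes of extracellular nucleotide and adenosine handling in 3 comparisons (filled points passed a BH adjusted p of 0.05). P2RX3 and SLC29A2 are highest at week 5 in CycW5 cows (3.71 and 2.33) and lower in CycNoP4 than in CycW5 cows (-2.42 and -1.80).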

How the data were processed

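Endometrial total RNA was made into stranded mRNA libraries, sequenced as single-end reads, trimmed, aligned to the UMD3.1 assembly with HISAT2 and counted on Ensembl genes by the authors. The submitters' processing notes also name StringTie and edgeR. The deposited table holds raw read counts, without normalization, for 18830 genes in 50 libraries (21592867 to 32813237 reads each). Groups came from the labels. Cows were biopsied at both weeks, so libraries of different weeks can come from the same cow. The labels link no library to a cow, so cow was not fitted, libraries were treated as separate samples, and p-values measure the spread between these libraries. No pair of libraries agreed within sampling noise (mean chi-square per gene at least 27.0 over 1225 pairs).

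CycW5 and NoCycW5 libraries (43) were fitted in edgeR 4.0.16 (R 4.3.3) with 4 group means, TMM, filterByExpr and robust quasi-likelihood dispersions (15483 genes). CycNoP4 comparisons used all 50 libraries and 6 means (16120 genes). A gene was called at a BH adjusted p of 0.05 or less. The SE was the log2 fold change over the root of the F statistic. Log2 CPM used a prior count of 2. Correlations and ratios were tested by permutation (numpy 2.4.6). The functions were tested on simulated data.

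The members and lists were chosen with earlier results of these data known, and no p is given for the members in comparisons of CycW5 and NoCycW5 cows. Genes were named by rule: the ENPP genes, of the nucleotide list the 3 with the smallest adjusted p at week 5 in each direction and every called gene where 5 or fewer were called, receptors, neighbours, and the 5 genes most like each member. Other list genes and the single libraries described were chosen after their values were seen. Symbols (2321) were paired with identifiers through the study's tables of called genes. The progesterone receptor was not analysed here, and no sequence or coordinate was used, since the annotation at hand is of another assembly. Alternatives were DESeq2 1.42.0 size factors and Wald test, limma-voom (3.58.1), the same with weights for library quality, tests of all counted genes, a minimum of 1 CPM in 10 libraries, other libraries in the fit, and leaving out each library. Levels per summed epithelial markers and the ratios of members were added after the data were seen.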

Additional observations from a re-analysis of the deposited data

Results flagged for a closer look

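In CycW5 cows at week 5, library 57 lay apart from the other 9 libraries in ENPP3 (1.32 CPM) and ENPP4 (51.1 CPM), its gap to the nearest library taking up 0.543 and 0.570 of the range of log2 CPM, above the critical value of 0.466 for 10 libraries. Chance flags about 1 in 20 such sets, and 15 sets of an ENPP gene in a group were examined. These sets came from the groups of 4 and 10 libraries only. The NoCycW5 groups (12 and 11 libraries) and CycNoP4 cows at week 9 (3 libraries) were not examined for libraries lying apart. By the interaction test, the week change differed between NoCycW5 and CycW5 cows for ENPP1 (log2 difference 1.83) and the nucleoside transporter SLC29A2 (2.08). It also differed for the adenosine receptor ADORA2B (1.24) and the ATP-gated channel P2RX3 (3.63). Of the neighbours of ENPP4 and ENPP5, CLIC5 (2.40) and CYP39A1 (3.55) were called. The pattern was not particular to these genes. The test also called the epithelial markers KRT8 (0.66) and CLDN4 (2.35), the oestrogen receptor ESR2 (2.45) and the endothelial marker VWF (-0.99). EPCAM, MUC1 and CDH5 were not called. Of all genes tested, 4.99% were called higher and 2.83% lower.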

How the results depend on the processing

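No paired analysis was possible because the labels link no library to a cow and every library number is used once. No called result of an ENPP gene changed direction under any alternative that was run. Other genes were followed under the alternatives only through counts of calls, so their single directions were not checked. The log2 fold changes of ENPP3, ENPP4 and ENPP5 between CycW5 and NoCycW5 cows at week 5 ranged from 2.22 to 3.04 when any library was left out. Per summed epithelial markers, which gives no test, ENPP4 moved to 2.14 at week 5, 1.65 between the weeks in NoCycW5 cows, 1.99 for the difference of changes and -0.34 in CycNoP4 against NoCycW5 cows, and ENPP5 to 1.53, 1.86 and 0.38 in the last 3 of these. ENPP5 in CycNoP4 against NoCycW5 cows was not called by limma-voom (1.10, BH adjusted p = 0.1) or with library quality weights (1.08, 0.0898), and gave 0.81 to 1.38 when libraries were left out, where ENPP3 gave 1.20 to 1.76. With only the compared groups in the fit, ENPP5 was not called against CycW5 cows (-1.52, BH adjusted p = 0.062) or between the weeks in CycNoP4 cows (1.67, 0.0542), and leaving out libraries gave -1.86 to -1.28 and 1.47 to 2.04. The cause of these changes was not tested.

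Counts of called genes depended more on the settings. Between the weeks in CycW5 cows 7 genes were called, and 0 with DESeq2 size factors, limma-voom, no filter or the stricter filter, 20 with all 50 libraries, 243 with DESeq2 and 3181 with library quality weights, and 0 to 383 when libraries were left out. For CycW5 against NoCycW5 cows at week 9, 1 gene was called, 12 with DESeq2, 0 with limma-voom with or without weights, either filter or all 50 libraries, and 0 to 5 when libraries were left out. The difference of changes had 1210, with 1848 by DESeq2, 621 by limma-voom, 3161 with weights and 795 to 2130 when libraries were left out. The weeks in NoCycW5 cows had 5533 and with weights 8562. For CycNoP4 cows, fits of only the compared groups called 904 in place of 2650 against NoCycW5 cows, 1771 in place of 2887 against CycW5 cows and 1231 in place of 3158 between the weeks, where weights gave 4952. Leaving out libraries gave 153 (without library 51) to 4775 (without library 64), 1111 to 4342 and 1295 to 4525 for these 3 counts. At week 9 DESeq2 called 13 and 19 genes in place of 0, and leaving out libraries gave 0 to 18 and 0 to 1. Of the nucleotide list, limma-voom called 1 gene in place of 3 lower in CycNoP4 than in CycW5 cows at week 5. It also called 1 in place of 3 higher at week 9 than at week 5 in CycNoP4 cows. With rank correlations, 2 or 3 of the 5 genes most like each member were kept. Depth did not limit ENPP4 and ENPP5, and ENPP3 was counted with as few as 25 reads in a library.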
